A study of Bos taurus with 36 samples.

Results

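The genes described here carry out DNA replication and cell division, and they comprised 40 of the 35092 genes in the bovine count table. They were chosen by symbol, and each symbol matched exactly 1 row of the table through its Entrez identifier. All 40 passed the filter on low counts in the heart, the gonads, the liver and maternal blood, so no member was dropped from any test. By role, 2 mark proliferation or untangle DNA, 6 are cyclins or their kinase, 9 license replication, 4 belong to the replication clamp or nucleotide supply, 2 are transcription factors, 5 act in checkpoints and mitotic exit, 4 are mitotic kinases or their partner, 4 sit at the kinetochore and 4 work on the spindle. By the phase in which they act, 17 were assigned to G1/S and 23 to G2/M.

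A dividing cell first loads the MCM2 to MCM7 helicase onto its origins with the help of CDC6 and CDT1, while geminin (GMNN) blocks a second round of loading. Cyclin E and then cyclin A drive S phase with their kinases, and cyclin B with CDK1 drives mitosis, when kinetochore proteins attach chromosomes to the spindle and checkpoint proteins hold back separation until all are attached. E2F1 switches on many of the S phase genes and FOXM1 many of the mitotic ones. Most of these transcripts are made only by cycling cells, so they are commonly read as a measure of how much of a tissue is dividing. The fetal liver is a site of blood formation, where erythroid precursors divide quickly.

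RNA was sequenced from organs of 10 male fetuses collected at Day 42 and from blood drawn from the heifers that carried them. In the ET_D7 group a Day 7 embryo was transferred on Day 7 of the recipient's cycle, and in the ET_D9 group a Day 7 embryo was transferred on Day 9. Numbering follows fetal weight, the lightest (fetus 1) weighing 1.253 g and the heaviest (fetus 10) 1.69 g. Fetuses 1 to 5 were ET_D7 and fetuses 6 to 10 were ET_D9, so the weights of the groups did not overlap and an effect of weight and an effect of transfer group cannot be told apart. There were 9 heart libraries (none for fetus 7), 9 libraries labelled gonads (none for fetus 2), 8 liver libraries (none for fetuses 6 and 7) and 10 maternal blood libraries, each from 1 animal. Organ and blood libraries were made with different kits, so their levels stand side by side and were not tested against each other.

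Heart libraries held 20930367 to 35857434 counts, gonad libraries 22762065 to 39649051, liver libraries 18231089 to 34454772 and blood libraries 26602415 to 40812354. The lowest count of a member in any library was 26, which was NUSAP1 in the liver of fetus 10. The share of mitochondrially encoded transcripts was 17.1% to 57.3% for heart, 16.3% to 36.8% for liver and 3.31% to 7.23% for gonad libraries. All 8 cardiomyocyte markers were higher in every heart library than in every other organ library, and all 8 hepatocyte markers and 12 of 14 erythroid markers were higher in every liver library. In the libraries labelled gonads this held for 7 of 8 mesonephros or kidney markers, 1 of 9 Sertoli markers (WT1), 0 of 7 Leydig markers and 1 of 8 germ cell markers (KIT). Germ cell marker NANOG had 0 counts in all of them. Their mesonephros or kidney markers summed to 339 to 453 CPM (counts scaled to a common normalised library total), against 11.6 to 21.3 CPM in the heart and 47.3 to 89.6 CPM in the liver. Sertoli markers summed to 106 to 179 CPM there, against 230 to 395 CPM in the heart and 56.1 to 94.3 CPM in the liver. Leydig markers summed to 7.04 to 15.8 CPM, against 10.1 to 25 and 62.5 to 149 CPM. Germ cell markers summed to 20.7 to 36 CPM, against 7.29 to 13.7 and 5 to 13.5 CPM. These libraries are called gonads below after their label, and the part of kidney tissue in their values was not tested.

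A pair of gonad libraries and a pair of liver libraries were more alike than separate samples usually are. Other pairs of an organ were not, and the gonads of fetuses 4 and 7 differed by over 10% in 88.5% of genes. In the gonads, the counts of fetus 8 were 1.27 times those of fetus 6 within 1% for 91.7% of the 11536 genes with at least 200 counts in both. In the liver, the counts of fetuses 1 and 2 differed by less than the sampling noise in the median gene, where the chi-square statistic was 0.296 of its expected value. Each of these pairs was averaged and counted as 1 sample, which left 9 heart, 8 gonad and 7 liver samples in the tests. In fits on weight, such a sample took the mean weight of its fetuses, a weight that no fetus had. When each library was fitted as a weighted sum of the others of its organ, the typical residual was 0.0335 to 0.35 of the counting error in the gonads, 0.113 to 1.33 in the liver and 0.56 to 1.88 in the heart, and 3.12 to 4.46 in maternal blood. Independent counting gives about 1, so p-values in the organs, which treat libraries as independent, may be too small. Ranges below are over all libraries as deposited, and means and tests count each pair once.

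By summed level, cell cycle transcripts were most abundant in the liver and least abundant in the heart, while single genes differed in their order. MKI67 and RRM2 alone averaged 686 and 684 CPM in the liver. Of the 40 genes, 15 exceeded both other organs in the liver, 8 did so in the gonads and 2 in the heart, by edgeR's quasi-likelihood test at an adjusted p under 0.05. Separately, 18 were lowest in the heart by both tests, of which MKI67, CCNB2, CCNE1, CDT1, RRM1, RRM2, CENPE and NDC80 are also among the 15. The share of all genes higher or lower than both other organs is not given here, and shares for each pair follow below. CDC20 and KIF20A, the 2 in the heart, each had a call that was lost in alternatives given below. PCNA was the 1 gene called in no pair of organs. In whole organs, fewer dividing cells and less RNA per dividing cell cannot be told apart. The summed level of the 17 G1/S genes was 995 to 1107 CPM in the heart, 1280 to 1456 CPM in the gonads and 2151 to 3467 CPM in the liver, with no overlap between organs. The 23 G2/M genes summed to 1141 to 1367 CPM in the heart, 1431 to 1945 CPM in the gonads and 1811 to 2572 CPM in the liver, where the gonads and the liver overlapped. Erythroid markers moved with this order in part, with sums of 9114 to 22065 CPM in the liver, 1600 to 3792 CPM in the heart and 299 to 1009 CPM in the gonads, and their part in the member levels was not tested.

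**Figure D1:**
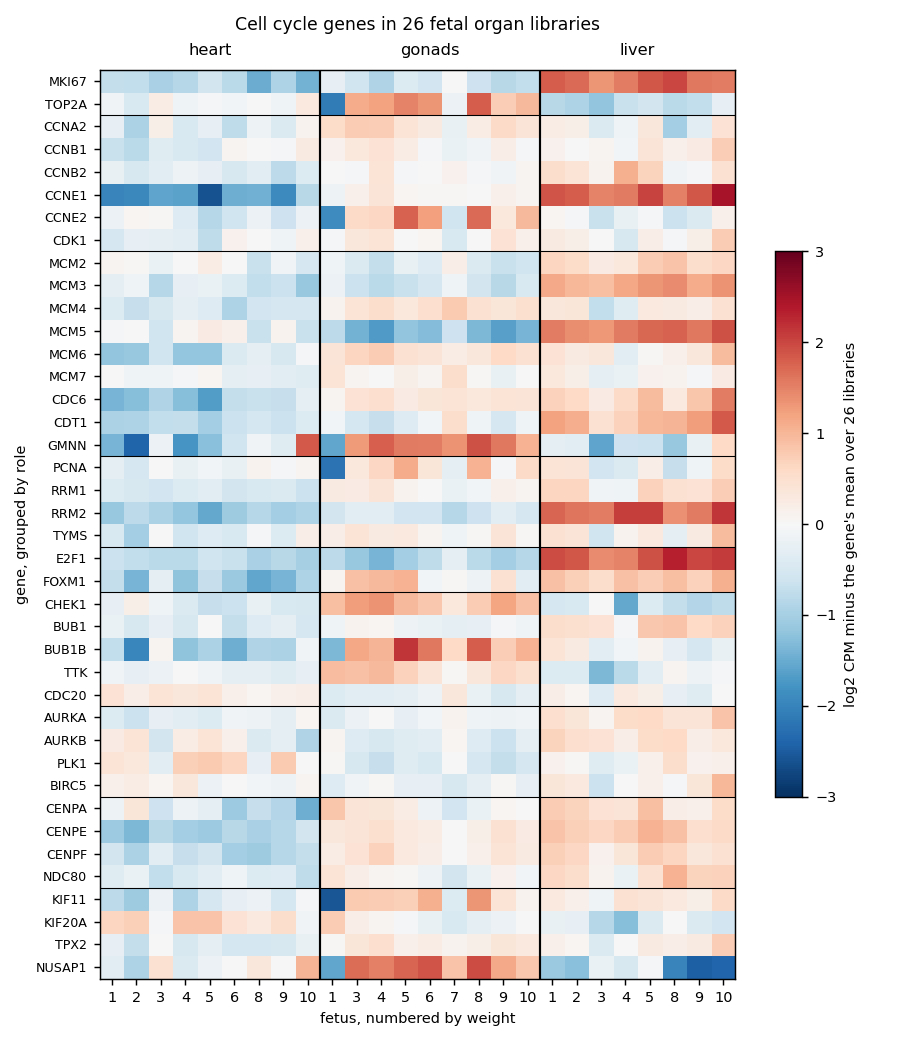
Heat map of the 40 genes (rows, grouped by role) in 26 organ libraries (columns, by organ and fetus number). Colour gives log2 CPM minus the gene's mean over the 26 libraries, red above and blue below. MKI67, CCNE1, MCM5, RRM2 and E2F1 are red in all 8 liver libraries, and TOP2A and GMNN are blue in the gonad library of fetus 1.

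Between heart and liver, 26 of the 40 genes were higher in the liver, where 30.5% of all 25095 genes tested were, and 3 were higher in the heart, where 26.8% of all genes were. The median log2 fold change of heart over liver was −0.68 over the members and 0 over all genes. Every liver library lay above every heart library for 15 members, against 12.4% of all genes. With the size factors of DESeq2 in place of TMM, the median of all genes shifted by −0.13, and the count higher in the heart fell from 3 to 1, KIF20A. The same single gene remained when fetus 9 or fetus 10 was left out.

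Between heart and gonads, 27 members were higher in the gonads, against 22.9% of all genes, and 4 were higher in the heart, against 22.7%. The median log2 fold change of heart over gonads was −0.54 over the members and −0.10 over all genes. Every gonad library lay above every heart library for 11 members (11.6% of all genes), and no member lay above in every heart library. Between gonads and liver the members were divided. Here 17 were higher in the liver, against 32.8% of all genes, and 9 were higher in the gonads, against 29.8% of all genes, so that the share higher in the gonads was below the background. The median log2 fold change of gonads over liver was −0.24 over the members and 0 over all genes, and the other scaling shifted the latter by −0.11. Requiring also a fold change above 2 left 11 members higher in liver than heart (24.4% of all genes) and 1 higher in heart than liver (19.3%). It left 11 higher in gonads than heart (14.3%) and 1 higher in heart than gonads (15%). Between gonads and liver, 7 members were higher in the liver (27.0%) and 6 in the gonads (22.6%), so that both shares were below the background.

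**Figure D2:**
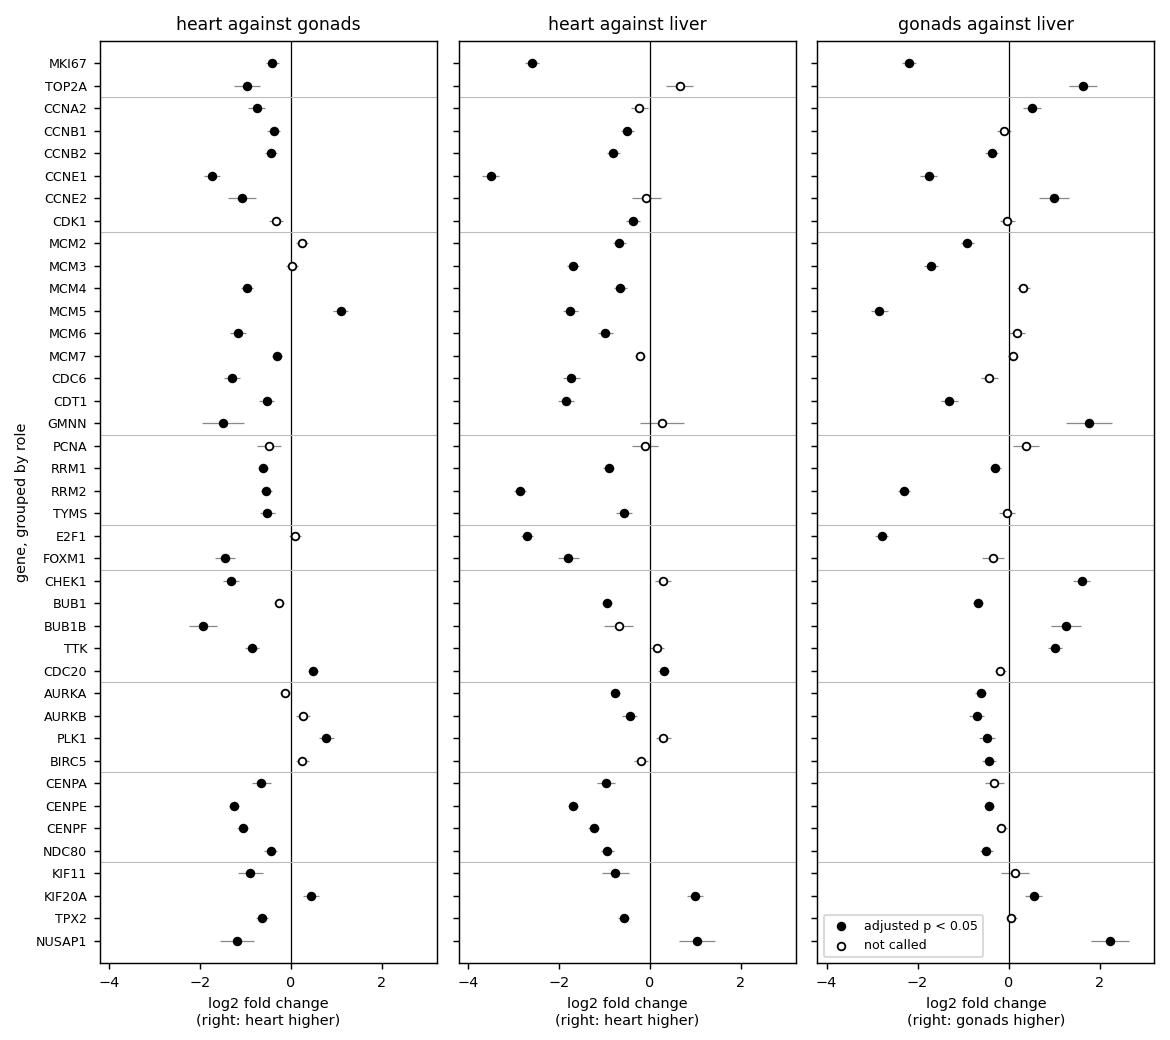
Log2 fold change of each of the 40 genes in the 3 organ comparisons, with its standard error as a bar. Filled points passed an adjusted p of 0.05 and open points did not. In the heart against liver panel 26 filled points lie left of 0 and 3 lie right of it, and in the gonads against liver panel 17 lie left and 9 right.

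MKI67 encodes Ki-67, which coats mitotic chromosomes and is absent from resting cells. Its level was lowest at 77.1, median 118 and highest at 148 CPM in the heart, 115, 142 and 215 CPM in the gonads, and 535, 669 and 866 CPM in the liver. Every liver library was above every library of the other organs, whereas heart and gonads overlapped. It was 6.04-fold higher in the liver than in the heart (log2 heart over liver −2.59, standard error 0.153, adjusted p = 7.04e-14, edgeR) and 4.54-fold higher than in the gonads (adjusted p = 4.08e-12, edgeR). TOP2A, the topoisomerase that untangles sister chromatids, gave another order. It ran from 80.2 to 136 CPM in the heart (median 104), from 26 to 391 CPM in the gonads (median 239) and from 48.8 to 93.1 CPM in the liver (median 64.6). It was 3.10-fold higher in the gonads than in the liver (log2 1.63, standard error 0.309, adjusted p = 5.68e-05, edgeR), although the gonad library of fetus 1 lay below every liver library. The count of MKI67 over that of TOP2A was 10.4 ± 2.24 in the liver (SD, n = 7), 1.10 ± 0.331 in the heart (SD, n = 9) and 1.55 ± 2.28 in the gonads (SD, n = 8), the last ranging from 0.357 to 7.01.

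The 2 genes for cyclin E, which starts S phase with its kinase, parted between organs. CCNE1 rose in steps from 3.63 to 12.5 CPM in the heart (median 7.30) through 19.9 to 29 CPM in the gonads (median 23) to 61.9 to 124 CPM in the liver (median 79), with no overlap between any 2 organs. It had the largest change of all 40 genes, 11.3-fold between liver and heart (log2 heart over liver −3.49, standard error 0.188, adjusted p = 1.10e-14, edgeR), and it was 3.32-fold higher in the gonads than in the heart (log2 heart over gonads −1.73, standard error 0.175, adjusted p = 5.68e-09, edgeR). CCNE2 stayed at 7.31 to 13.7 CPM in the heart and 8.36 to 14.6 CPM in the liver, with a log2 difference of −0.08 (standard error 0.319, adjusted p = 0.889, edgeR). In the gonads it spanned 3.57 to 45.3 CPM. The count of CCNE1 over that of CCNE2 was 0.676 ± 0.217 in the heart (SD, n = 9) and 7.20 ± 0.998 in the liver (SD, n = 7). Since the library cancels in such a ratio, it holds under any scaling.

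The mitotic cyclins changed less. CCNB1 averaged 34.3 ± 8.86 CPM over heart (SD, n = 9), 44.5 ± 6.60 CPM over gonad (n = 8) and 48.1 ± 9.83 CPM over liver samples (n = 7). CCNB2 averaged 25.3 ± 3.10, 34.0 ± 4.33 and 44.0 ± 13.4 CPM in the same order, and both were lower in the heart than in each other organ. CCNA2, which acts in S phase and early mitosis, was highest in the gonads at 62.3 ± 12.4 CPM (SD, n = 8), against 37.1 ± 9.27 CPM in the heart and 43.5 ± 14.2 CPM in the liver. CDK1, their kinase, was called in the heart and liver pair only, where it was 1.29-fold higher in the liver (adjusted p = 0.0461, edgeR).

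The replication licensing group, which makes origins ready, did not move as a block. Against the heart, 7 of its 9 genes were higher in the liver (30.5% of all genes) and 0 lower (26.8%). Between gonads and liver, 4 were higher in the liver (32.8% of all genes), 1 was higher in the gonads (29.8%) and 4 were not called. The 6 MCM genes encode 1 ring that holds each subunit once, yet their transcripts differed in their pattern. MCM5 ranged from 70.6 to 132 CPM in the heart (median 113), 34.2 to 72.4 CPM in the gonads (median 44.0) and 277 to 419 CPM in the liver (median 332). It was 7.15-fold higher in the liver than in the gonads (log2 gonads over liver −2.84, standard error 0.177, adjusted p = 2.09e-13, edgeR) and 2.13-fold higher in the heart than in the gonads (log2 1.09, standard error 0.161, adjusted p = 2.82e-06, edgeR). MCM3 followed it to the liver, from 86.4 to 174 CPM in the heart and 106 to 174 CPM in the gonads to 352 to 507 CPM in the liver. MCM2 was 1.60-fold and 1.88-fold higher in the liver than in the heart and the gonads. In contrast, MCM4 and MCM6 were higher in both gonads and liver than in the heart and were not called between gonads and liver, where MCM4 was at 132 ± 18.1 and 106 ± 27.8 CPM and MCM6 at 96.1 ± 11.8 and 84.5 ± 24.2 CPM. MCM7 was the flattest, at 100 ± 10.9 CPM in the heart, 124 ± 21.1 CPM in the gonads and 115 ± 16.2 CPM in the liver.

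The helicase loaders and their inhibitor also parted. CDC6 was 3.30-fold and CDT1 3.58-fold higher in the liver than in the heart (adjusted p = 1.24e-08 and 1.40e-09, edgeR), and neither overlapped between these organs. GMNN ran from 3.60 to 67.5 CPM in the heart (median 12.4), 6.38 to 71 CPM in the gonads (median 55.1) and 6.36 to 28.6 CPM in the liver (median 13.6). All 3 organs overlapped, and the hearts other than that of fetus 10 (at most 17.6 CPM) still overlapped the livers. It was 3.37-fold higher in the gonads than in the liver (log2 1.75, standard error 0.507, adjusted p = 0.00412, edgeR) and 2.81-fold higher than in the heart (log2 heart over gonads −1.49, standard error 0.461, adjusted p = 0.00944, edgeR). The count of CDT1 over that of GMNN was 3.43 ± 0.884 in the liver (SD, n = 7), with every library above 2.56, and 0.195 to 3.07 over the gonad libraries.

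RRM1 and RRM2 encode the large and small subunits of ribonucleotide reductase, which makes the DNA building blocks. RRM2 was at 68 to 113 CPM in the heart (median 96.1), 108 to 158 CPM in the gonads (median 134) and 510 to 868 CPM in the liver (median 623). No liver library overlapped the other organs. It was 7.19-fold higher in the liver than in the heart (log2 heart over liver −2.85, standard error 0.131, adjusted p = 4.55e-16, edgeR) and 4.92-fold higher than in the gonads (adjusted p = 5.90e-14, edgeR). RRM1 rose by less, 1.88-fold between liver and heart and 1.22-fold between liver and gonads. TYMS, which makes thymidylate, was 1.47-fold higher in the liver than in the heart and was at 83.5 ± 10.6 CPM in the gonads and 85.6 ± 29.3 CPM in the liver. PCNA, the sliding clamp of the replication fork, was at 82.9 ± 10.6 CPM in the heart, 114 ± 53.6 CPM in the gonads and 88.7 ± 30.3 CPM in the liver.

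E2F1 was the transcription factor with the larger change. It lay between 26.4 and 34.7 CPM in the heart (median 30.1), between 20 and 42.7 CPM in the gonads (median 28.8) and between 140 and 265 CPM in the liver (median 201). The heart and gonads overlapped, and the liver stood apart by 6.49-fold from the heart (log2 heart over liver −2.70, standard error 0.142, adjusted p = 6.55e-15, edgeR) and by 6.93-fold from the gonads (log2 gonads over liver −2.79, standard error 0.148, adjusted p = 8.22e-15, edgeR). FOXM1 was low in every organ, at 1.85 to 4.52 CPM in the heart, 4.35 to 11.2 CPM in the gonads and 7.95 to 11.4 CPM in the liver. It was 2.73-fold higher in the gonads than in the heart (log2 heart over gonads −1.45, standard error 0.223, adjusted p = 5.43e-06, edgeR), where 1 gonad library overlapped the highest heart library.

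The checkpoint genes were the group in which the gonads most often led. CHEK1, the kinase that halts the cycle when forks stall, ran from 26.5 to 53.3 CPM in the gonads (median 39.3), from 13.1 to 23.8 CPM in the heart (median 15.5) and from 7.27 to 21 CPM in the liver (median 13.9). Every gonad library was above every liver library for this member alone, against 16.3% of all genes, and every liver library was above every gonad library for 9 members, against 14.7% of all genes. The difference of CHEK1 was 3.04-fold (log2 1.60, standard error 0.185, adjusted p = 2.98e-08, edgeR). TTK, a kinase of the spindle checkpoint, was 1.81-fold higher in the gonads than in the heart and 2.02-fold higher than in the liver. BUB1 and BUB1B encode related checkpoint proteins and behaved differently. BUB1 was highest in the liver at 180 ± 34.4 CPM (SD, n = 7), against 113 ± 10.7 CPM in the gonads and 94.6 ± 13.9 CPM in the heart. BUB1B ran from 5.35 to 22.1 CPM in the heart (median 10.8), 8.19 to 92 CPM in the gonads (median 42.5) and 14.7 to 27.5 CPM in the liver (median 18.7), and was 3.83-fold higher in the gonads than in the heart (log2 heart over gonads −1.94, standard error 0.313, adjusted p = 1.05e-05, edgeR). CDC20, which activates the ligase that ends mitosis, was highest in the heart, at 44.2 ± 4.28 CPM (SD, n = 9) against 31.4 ± 6.24 CPM in the gonads and 35.7 ± 6.79 CPM in the liver. Its log2 fold change of heart over gonads was 0.48 (standard error 0.119, adjusted p = 0.00148, edgeR) and of heart over liver 0.30 (standard error 0.123, adjusted p = 0.0404, edgeR). The second call was lost with the size factors of DESeq2 (log2 0.14), with DESeq2 itself, with the 2 organs fitted alone, and without fetus 3, 5, 8, 9 or 10.

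The mitotic kinases AURKA, AURKB and PLK1 and the AURKB partner BIRC5 were all lower in the gonads than in the liver, by 1.35-fold to 1.63-fold. Over all genes, 32.8% were lower in the gonads in this pair. PLK1, which acts from mitotic entry to its end, ran from 34.4 to 74.3 CPM in the heart (median 56.8), 26.1 to 43.7 CPM in the gonads (median 30.8) and 33.1 to 62.3 CPM in the liver. It was 1.71-fold higher in the heart than in the gonads (log2 0.77, standard error 0.164, adjusted p = 0.000335, edgeR) and did not pass the test against the liver (log2 0.30, standard error 0.169, adjusted p = 0.134, edgeR). AURKB did not pass the test between heart and gonads.

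The kinetochore genes shared their lowest organ. They are CENPA, the centromeric histone, CENPE and CENPF, which help microtubules attach, and NDC80, part of the attachment site itself. All 4 were lower in the heart than in the gonads (22.9% of all genes) and than in the liver (30.5%). Between gonads and liver, 2 were higher in the liver (32.8% of all genes) and 2 were not called. CENPE was at 28.2 to 49.6 CPM in the heart (median 37.0), 73.3 to 101 CPM in the gonads (median 88.8) and 102 to 150 CPM in the liver (median 121), with no overlap between any 2 organs. CENPF was 94.5 to 154 CPM in the heart, 199 to 317 CPM in the gonads and 215 to 331 CPM in the liver, so that only the latter organs overlapped.

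The spindle genes did not share an order. KIF20A, a motor of the late spindle, fell from the heart (85.1 to 165 CPM, median 132) through the gonads (66.8 to 154 CPM, median 88) to the liver (37.7 to 90.4 CPM, median 67.4). KIF20A overlapped between each pair of organs, heart and liver included. It was 1.99-fold higher in the heart than in the liver (log2 0.99, standard error 0.184, adjusted p = 4.81e-05, edgeR) and 1.35-fold higher than in the gonads (log2 0.44, standard error 0.174, adjusted p = 0.0412, edgeR), and the second call was lost when fetus 2, 4, 5, 7 or 9 was left out and with the fetus as a replicate block (log2 0.40). NUSAP1, which bundles spindle microtubules, ran from 4.62 to 17.7 CPM in the heart (median 8.80), 2.97 to 34.2 CPM in the gonads (median 25) and 1.60 to 8.57 CPM in the liver (median 3.86). It was 4.67-fold higher in the gonads than in the liver (log2 2.22, standard error 0.426, adjusted p = 6.44e-05, edgeR), and 2.05-fold higher in the heart than in the liver (log2 1.04, standard error 0.403, adjusted p = 0.0306, edgeR). KIF11 and TPX2, which build the bipolar spindle, were lowest in the heart by both tests and were not called between gonads and liver.

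Another 97 cell cycle genes were listed, and 96 had a count in the organs (CCND1 was listed at 0 in every organ library). Against the heart, 49 of the 96 were higher in the gonads (22.9% of all genes) and 12 lower (22.7%). In the liver, 50 were higher than in the heart (30.5% of all genes) and 15 lower (26.8%). Between gonads and liver, 35 were higher in the gonads (29.8% of all genes) and 37 in the liver (32.8%). Both shares were near the background, and the median log2 fold change was −0.02. The CDK inhibitors brake the cycle. Of the 7, 5 were higher in the heart than in the gonads (22.7% of all genes). In the liver, 6 were higher than in the gonads (32.8% of all genes). None was higher in the gonads in either comparison (22.9% and 29.8% of all genes). Between heart and liver, 3 of the 7 were higher in the liver (30.5% of all genes) and 1 in the heart (26.8%). Their median log2 fold change of heart over liver was −0.33, beside −0.51 over all 96. CDKN1A (p21) was at 4.87 to 12 CPM in the heart, 0.38 to 1.12 CPM in the gonads and 0.196 to 2.47 CPM in the liver, and was higher in the heart than in the gonads (log2 3.26, standard error 0.457, adjusted p = 1.33e-06, edgeR). CDKN2C was higher in the heart than in the gonads by 2.27 on the log2 scale, at 5.20 ± 0.745 against 1.07 ± 0.280 CPM. CDKN2D (p19) was at 62.2 to 104 CPM in the liver, 15.7 to 27 CPM in the heart and 3.43 to 6.06 CPM in the gonads. CDKN2A and CDKN2B were also called in at least 1 pair, but their counts were 0 in some library of every organ and no more than 8 and 4 in any gonad library, so no fold is given.

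Among the other E2F genes, E2F2 was at 90.2 to 156 CPM in the liver against 6.46 to 11.5 CPM in the heart, a log2 fold change of heart over liver of −3.89 (standard error 0.151, adjusted p = 1.52e-17, edgeR), and its gonad libraries lay at 8.26 to 16.1 CPM. Of the 34 genes of origins and replication forks, 20 were higher in the gonads than in the heart (22.9% of all genes) and 2 lower (22.7%). In the liver, 20 were higher than in the heart (30.5% of all genes) and 5 lower (26.8%). TIPIN, a protector of stalled forks, was at 49.3 to 69.6 CPM in the gonads, above every heart library (6.85 to 29.6 CPM) and every liver library (7.21 to 15.1 CPM). RPA1, which coats single-stranded DNA, and RBL2, a pocket protein of resting cells, were higher in the heart than in the liver by 1.07 and 1.09 on the log2 scale. PRIM1, the primase, was higher in the gonads than in the heart (log2 heart over gonads −2.10) and spanned 8.13 to 138 CPM among the gonad libraries. The kinase MELK was higher in the gonads than elsewhere, at 2.78 to 36.4 CPM against 0.605 to 4.51 CPM in the liver, and CDC7, the kinase that fires origins, was higher in the gonads than in the liver by 2.43 while spanning 7.83 to 120 CPM in the gonads.

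Between fetuses, the median coefficient of variation of the members was 19.8% for hearts (all genes of at least 1 CPM, 22.5%), 19.5% for gonads (19.9%), 21.9% for livers (31.2%) and 19.1% for maternal blood (16.7%). In the liver 8 of the 40 lay above the median of all genes and in maternal blood 29 did. In the heart the steadiest members were RRM1, TTK and CDC20, at 7.29%, 7.74% and 9.68%, and the most variable were GMNN, BUB1B and NUSAP1, at 115%, 44.9% and 41.2%. In the gonads the steadiest were CDC6, BUB1 and CENPE (8.75%, 9.49% and 10.1%) and the most variable CCNE2, BUB1B and TOP2A (62.4%, 54.8% and 50%). In the liver FOXM1, AURKB and MCM3 were steadiest (11.7%, 11.9% and 12.4%) and NUSAP1, GMNN and BIRC5, a survival and mitosis protein, most variable (64.2%, 51.0% and 35.6%).

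In the gonads the members were split into 2 sets after their values were seen. For 33 members the counts of fetuses 6 and 8 kept the common ratio of these libraries within 0.339%. The other 7, TOP2A, CCNE2, GMNN, PCNA, BUB1B, KIF11 and NUSAP1, departed from it by 1.09-fold to 1.66-fold. Such departures over 5% occurred in 7.68% of all genes and in 17.5% of the members. The same 7 were the most variable members of the gonads and had the largest coefficients of variation there, from 39.6% to 62.4%, whereas the other 33 reached at most 36.7%. TOP2A was 26 CPM in the gonads of fetus 1 and 98.1 CPM in fetus 7, against 184 to 391 CPM in the other 7 libraries. KIF11 was 6.27 and 28.2 CPM in fetuses 1 and 7 against 40.3 to 93.4 CPM. PCNA was 19.4 and 73.3 CPM against 87.5 to 194 CPM. In all 7, fetus 1 was the lowest library. TOP2A, CCNE2, PCNA, BUB1B and KIF11 were next lowest in fetus 7, whereas GMNN and NUSAP1 were at 48.0 and 16.0 CPM there and lower in fetus 10 (39.1 and 15.4 CPM). The mean correlation between pairs of these 7 was 0.94 in the gonads, against 0.06 between pairs of the other 33 and 0.01 between pairs of all genes, over 8 samples. Because the 7 were picked from these same libraries, their variation and correlation in the gonads are a description. They were not compared with the other genes that depart between fetuses 6 and 8. The library of fetus 1 was the shallowest of the gonads (22762065 counts), and that of fetus 7 had the highest mitochondrial share (7.23%). Their part in these levels was not tested.

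**Figure D3:**
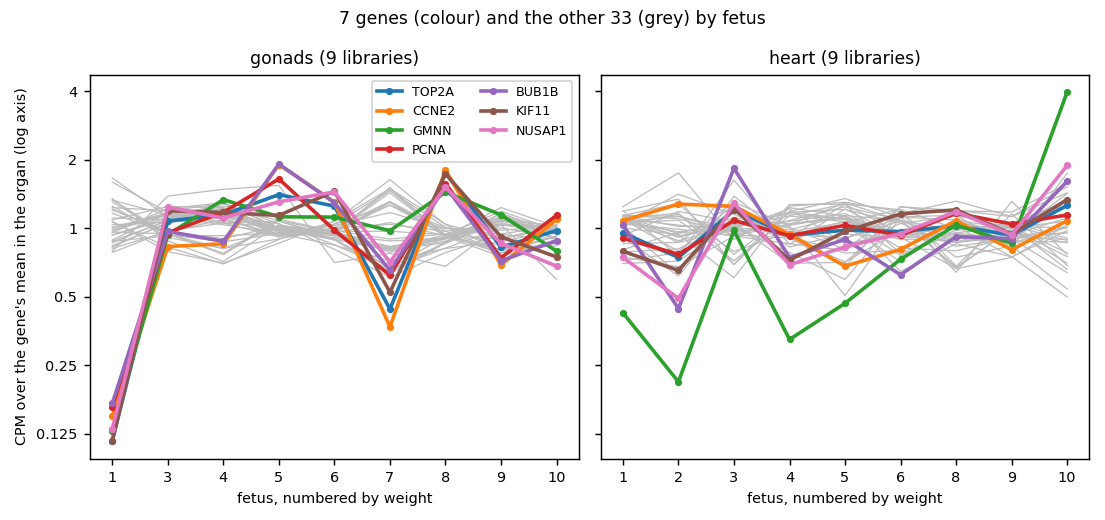
CPM of each gene over its mean in the organ (log axis) by fetus, in 9 gonad libraries (left) and 9 heart libraries (right). Coloured lines are the 7 genes named in the legend and grey lines the other 33. In the gonads the coloured lines lie lowest in fetus 1, and in the heart GMNN is highest in fetus 10.

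Without these 7 genes, the count higher in the gonads than in the liver fell from 9 to 4 (CCNA2, CHEK1, TTK and KIF20A). In the heart the same 7 had a mean pairwise correlation of 0.61, against 0.004 between the other 33. Their mean standardised level was lowest in the heart of fetus 2 (−1.26 SD), which had the highest mitochondrial share of the hearts (57.3%), and highest in those of fetuses 10 (1.36 SD) and 3 (0.97 SD), which had the lowest shares (17.1% and 23.5%). The part of the mitochondrial share in these levels was not tested. The mean pairwise correlations of the 7 and of the other 33 were 0.38 and 0.40 in the liver and 0.81 and 0.48 in maternal blood, and the differences were not tested. The liver of fetus 3 held the lowest value of 23 of the 40 members and that of fetus 10 the highest of 21. These livers had mitochondrial shares of 33.1% and 16.3%. Those of fetuses 4 and 8 had shares of 36.8% and 32.4% and held the lowest value of 9 and 4 members. The part of the share in the liver levels was not tested, and how often a library was lowest or highest over all genes is not given.

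The 10 further genes whose profile within organs was most like the mean of the members were found over the 26 organ libraries with the organ means removed, leaving out both lists of cell cycle genes. They were UBXN2B, HNRNPL, HSPA9, HDAC1, TRUB2, PSMD9, KARS1, NOLC1, CSE1L and FBXW2, with correlations from 0.86 for UBXN2B to 0.79 for FBXW2. The median over the 19499 genes compared was 0.05. The points share libraries, so these values are a description.

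Along fetal weight, 3 members had a slope in the heart, where the share of members called (7.5%) was close to that of all genes (6.77% of 16250, and 5.22% with a rise). At an unadjusted p under 0.05 there were 16 members (40%), against 29.1% of all genes. GMNN, CCNB1 and MCM6 rose with weight. GMNN was at 7.24, 3.60, 16.7, 5.53 and 7.98 CPM in fetuses 1 to 5 and at 12.4, 17.6, 14.6 and 67.5 CPM in fetuses 6, 8, 9 and 10. Fetus 10 stood far above the others. The slope of GMNN was 0.63 on the log2 scale per 0.1 g (standard error 0.136, adjusted p = 0.0395, edgeR), and without fetus 10 it was 0.34 (adjusted p = 0.402, edgeR). CCNB1 was at 25.7, 23.2, 31.8, 29.4 and 27.4 CPM in fetuses 1 to 5 and at 42.6, 41.1, 38.6 and 49.1 CPM in fetuses 6, 8, 9 and 10, so that every ET_D9 heart was above every ET_D7 heart. Its slope was 0.19 (standard error 0.0469, adjusted p = 0.0441, edgeR). Among the ET_D9 hearts the level fell from fetus 6 to fetus 9 and was highest in fetus 10. MCM6 was at 30.2 to 45.3 CPM in the ET_D7 hearts and 48.7 to 65.6 CPM in the ET_D9 hearts, and its slope was 0.22 (standard error 0.0556, adjusted p = 0.0452, edgeR). With the transfer group in the fit the slopes of CCNB1 and MCM6 were 0.05 and 0.09 (both adjusted p at least 0.757, edgeR). With the mitochondrial share in the fit, or without fetuses 9 and 10, 0 members were called. Leaving out fetus 1, 2, 4, 5, 8 or 10 also left 0, whereas leaving out fetus 3 gave 9 and fetus 9 gave 7. DESeq2 called 12. The mitochondrial share of the hearts was 23.5% to 57.3% in fetuses 1 to 5 and 17.1% to 39.0% in fetuses 6 to 10, and its part in these slopes beyond that fit was not tested.

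In the gonads, the liver and maternal blood, 0 members had a linear slope by edgeR (0.0%, 1.59% and 0.0% of all genes), and 1, 1 and 2 members had an unadjusted p under 0.05, against 5.85%, 12.8% and 9.69% of all genes. DESeq2 called NUSAP1 in the liver and 0 members in gonads and blood. The smallest p in the gonads belonged to CENPA (slope −0.15, standard error 0.0659, adjusted p = 0.850, edgeR), KIF20A (−0.13) and TTK (−0.10), and in the liver to NUSAP1 (−0.61, standard error 0.160, adjusted p = 0.124, edgeR), BUB1B (−0.15) and CDT1 (0.15). On a spline of weight, which also finds curves, 7 members were called in the gonads (5.31% of all genes), TOP2A, GMNN, PCNA, BUB1B, KIF11, NUSAP1 and CENPA. Of these 7 members, 6 are among the 7 that were lowest in fetus 1. The gonads of fetuses 6 (1.396 g) and 8 (1.565 g) entered this fit as 1 sample at the mean of their weights. At an unadjusted p under 0.05, 13 members passed (22.4% of all genes). With all 9 gonad libraries as deposited, 0 members and 0 of all genes were called, and 2241 genes had an unadjusted p under 0.05. No member was called on a spline in the heart, the liver or maternal blood (0.0%, 1.71% and 0.129% of all genes), with 3, 4 and 1 at an unadjusted p under 0.05 (7.99%, 10.6% and 9.77% of all genes).

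**Figure D4:**
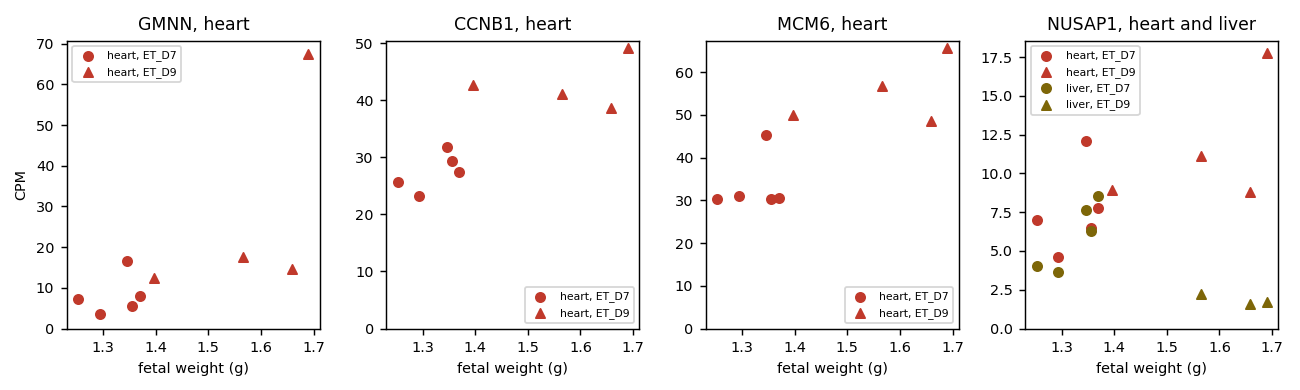
CPM of GMNN, CCNB1 and MCM6 in the heart and of NUSAP1 in heart and liver against fetal weight in g. Circles are ET_D7 and triangles ET_D9 fetuses, 1 point a library. The heart of the heaviest fetus has 67.5 CPM of GMNN and all others at most 17.6 CPM, and NUSAP1 is lower in the 3 ET_D9 livers than in the 5 ET_D7 livers.

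Between the transfer groups, 1 member was called in the liver (2.2% of all genes, and 2.04% with a fall). NUSAP1 was at 4.05, 3.68, 7.65, 6.28 and 8.57 CPM in the livers of fetuses 1 to 5 and at 2.23, 1.60 and 1.70 CPM in those of fetuses 8, 9 and 10. The groups did not overlap, as was the case for 5.73% of all genes in this direction. The log2 difference of ET_D9 over ET_D7 was −1.99 (standard error 0.397, adjusted p = 0.0317, edgeR), and the call was lost when fetus 3, 4, 5, 8, 9 or 10 was left out or when no filter was set on low counts, while the difference stayed between −2.07 and −1.79. These values rest on 26 to 263 counts a library. Fitted as weighted sums of the other livers, those of fetuses 8, 9 and 10 left residuals of 0.113, 0.113 and 0.115 of the counting error. Those of fetuses 1 and 2 left 0.122 and 0.123, and those of fetuses 3, 4 and 5 left 0.92, 0.835 and 1.33. The test treats the ET_D9 livers as independent, so its p-value may be too small. E2F1, TTK and NDC80 were higher in every ET_D9 liver (8.48% of all genes) and passed no test. In the heart, 0 members were called (0.0492% of all genes) and 13 had an unadjusted p under 0.05, against 24.6% of all genes. CCNB1, MCM6 and CDC6 had the smallest p, with log2 differences of 0.64, 0.72 and 0.70 (standard errors 0.111, 0.152 and 0.172, adjusted p = 0.0637, 0.0637 and 0.0663, edgeR). In 5 members (CCNB1, CDK1, MCM6, CDC6 and CDT1) every ET_D9 heart was above every ET_D7 heart, as in 6.36% of all genes, and in 3 (MCM7, TTK and CENPA) below, as in 3.38%. Without fetus 3, 10 members were called, and DESeq2 called 8.

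In the gonads, 0 members differed between the transfer groups by edgeR (0.0113% of all genes), and 4 had an unadjusted p under 0.05 (13.0% of all genes), with 0 called by DESeq2. CENPA and TTK were lower in every ET_D9 library, as were 4.3% of all genes, and 0 members were higher in every one (3.35% of all genes). CENPA was at 59.7 to 91.1 CPM in the ET_D7 gonads and 34.8 to 53.7 CPM in the ET_D9 gonads (log2 −0.56, standard error 0.175, adjusted p = 0.236, edgeR), and TTK at 51.7 to 63.4 against 32.8 to 49.6 CPM (log2 −0.43, adjusted p = 0.271, edgeR). FOXM1 differed by −0.71 (adjusted p = 0.277, edgeR). In the heart CENPA was at 33.5 to 65.8 CPM in ET_D7 and 18.8 to 32.1 CPM in ET_D9 fetuses (log2 −0.86), and it lay at 57.5 to 75.7 CPM in the ET_D9 livers against 67.3 to 96.1 CPM in the ET_D7 livers (log2 −0.44, adjusted p = 0.337, edgeR). It passed the test in none of them.

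The slopes on weight were compared between organs in 1 fit. Between heart and liver, 1 member differed (7.24% of all genes did). It was NUSAP1, whose slope was larger in the heart by 0.82 on the log2 scale per 0.1 g (standard error 0.230, adjusted p = 0.0322, edgeR). In the heart it ran from 4.62 to 12.1 CPM in fetuses 1 to 5 and from 8.80 to 17.7 CPM in fetuses 6 to 10, while in the liver it was lower in the heavier fetuses, as given above. The call was lost without fetus 2, 4, 5, 8, 9 or 10. Between heart and gonads and between gonads and liver 0 members differed (0.0257% and 4.93% of all genes), with 2 and 4 at an unadjusted p under 0.05 (6.42% and 15.4% of all genes).

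In maternal blood the members with the highest levels were MKI67, CENPF, MCM7 and RRM1. MKI67 ranged from 228 to 417 CPM over the 10 heifers (median 318), CENPF from 78.5 to 129 CPM, MCM7 from 77.5 to 121 CPM and RRM1 from 58.6 to 97.3 CPM. The lowest were CCNB2 at 1.95 to 5.93 CPM, FOXM1 at 2.22 to 4.97 CPM, CDC20 at 1.90 to 5.69 CPM and CDT1 at 3.05 to 7.04 CPM. Longer transcripts gather more reads, and transcript lengths were not used here, so this order is not one of molecules. The steadiest members were PLK1, TYMS and MCM4 (7.84%, 11.1% and 12.6%) and the most variable CCNB1, CCNB2 and CDC20 (36.4%, 36.3% and 33.3%). The count of CCNB1 over that of CCNB2 was 4.11 ± 1.50 in blood (SD, n = 10), beside 1.39 ± 0.463 for hearts, 1.32 ± 0.212 for gonads and 1.18 ± 0.361 for livers.

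The members moved together from heifer to heifer. The mean correlation between pairs of members was 0.51 over the 10 heifers, against 0.001 between pairs of all genes, and the profile of 34 members correlated above 0.5 with the mean of the others. TPX2, RRM2 and MKI67 followed it most closely (0.97, 0.96 and 0.94), and AURKA (−0.22), PLK1 (0.13) and CENPA (0.15) least. The heifer of fetus 2 had the lowest value of 21 members and the heifer of fetus 8 the highest of 19. MKI67 was 228 CPM in the first and 417 CPM in the second, TPX2 31.7 and 61.6 CPM and PCNA 38.9 and 82.5 CPM. Both phases took part, with mean standardised levels of −1.50 SD (G1/S) and −1.40 SD (G2/M) for fetus 2 and 1.01 SD and 1.10 SD for fetus 8. The blood library of fetus 2 also held 3542 CPM of cardiomyocyte markers, where 8 of the others held 1.03 to 19.7 CPM and that of fetus 5 held 1185 CPM. Leukocyte markers summed to 7525 CPM in the library of fetus 2 and 6884 CPM in that of fetus 8, and erythroid markers ranged from 260 to 9885 CPM over the 10. Their part in the member levels was not tested. Fitted as a weighted sum of the others, the blood library of fetus 2 left the largest residual, 4.46 times the counting error. How often each blood library was lowest or highest over all genes is not given.

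**Figure D5:**
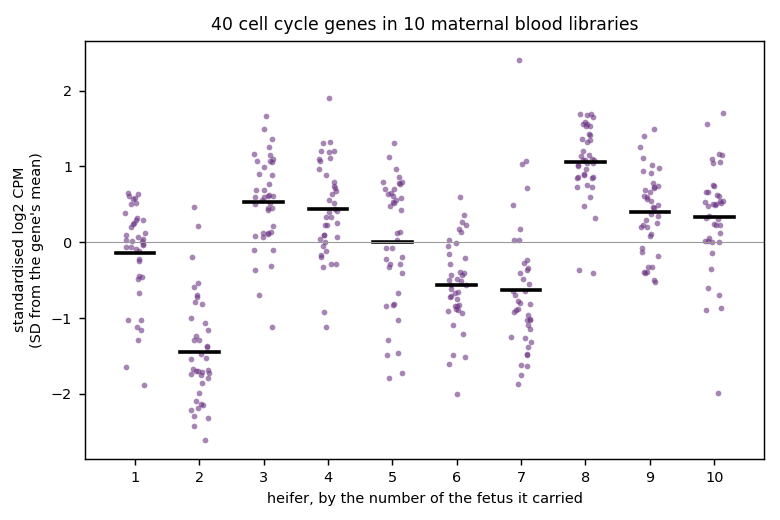
Standardised log2 CPM (in SD from the gene's mean over 10 libraries) of the 40 genes in each maternal blood library, ordered by the number of the fetus. Each point is a gene and each black line the mean of the 40. The mean is lowest for fetus 2 (−1.44 SD) and highest for fetus 8 (1.06 SD).

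In blood, the slope on fetal weight was positive in 37 of the 40 members, with a median of 0.06 on the log2 scale per 0.1 g against 0.002 over all genes. Because the members move together, this count does not give 40 separate observations, and 0 passed the test. CCNB2 had the smallest p (slope 0.27, standard error 0.0827, adjusted p = 0.411, edgeR), followed by MCM4 (0.08) and MKI67 (0.09). Between the transfer groups 0 members differed in blood (0.0% of all genes), and 1 had an unadjusted p under 0.05, against 7.6% of all genes, with 0 called by DESeq2. AURKA was at 8.21 to 9.67 CPM in the ET_D7 heifers and 9.49 to 15.6 CPM in the ET_D9 heifers (log2 0.35, standard error 0.148, adjusted p = 0.633, edgeR), and CCNB2 and MCM4 came next with log2 differences of 0.61 and 0.17. No member was without overlap between the groups in blood, where 0.657% of all genes were higher in every ET_D9 library and 0.633% in every ET_D7 library.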

How the data were processed

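The authors checked the reads with FastQC (version 0.11.9), trimmed them with Trimmomatic, mapped them with STAR (version 2.7.0b) and counted them per gene with featureCounts of Subread (version 2.0.3), and they deposited whole-number counts for 35092 Entrez genes with no normalization. Organ libraries came from a stranded mRNA kit and blood libraries from a stranded SMARTer kit, with paired reads. Options for strand, read pairs and multi-mapping reads are not given in the sources used here, so genes that overlap or resemble others are uncertain. Of counts from 1 to 20, 83.8% to 87.9% were even in blood and 47.2% to 77.3% in the organs, where about equal numbers of even and odd counts would be usual.

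RefSeq symbols were matched to 31630 identifiers by name only. The 40 members and all gene lists, tests and alternatives were chosen with earlier results of these data known. Named genes were the 4 called with the largest change in each direction per organ pair, the 3 smallest p per tissue for weight and transfer, and the 3 highest and lowest coefficients of variation, with the 3 largest in each direction among the other cell cycle genes. In blood, the 4 highest and 4 lowest levels were named.

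Counts were scaled by TMM and tested with edgeR 4.0.16 (R 4.3.3) by the quasi-likelihood method with Benjamini-Hochberg adjustment and a threshold of 0.05. Organs were compared in 1 fit over genes with a count, and weight and transfer group within each tissue over genes reaching 10 counts in 4 or more libraries. CPM uses TMM-scaled totals. Scores are means of standardised log2(CPM + 0.1). DESeq2 1.42.0 was an alternative. Pairs of near-identical libraries were averaged and rounded, which departs from the planned fit of 26 libraries. The fits were also run on simulated counts drawn independently for each library. That run cannot show how the p-values behave where organ libraries depend on each other. Libraries of 1 number come from 1 animal, and the deviations of the same fetus correlated between −0.24 and 0.352 across organs. The replicate-block alternative was fitted on all libraries. Every member had at least 26 counts in every library. No column of the table was left unassigned.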

Additional observations from a re-analysis of the deposited data

Results flagged for a closer look

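In 10 of 160 sets of samples (40 genes in 4 tissues, each near-identical pair averaged to 1 sample) the highest or lowest sample stood far from the nearest other one, and chance gives this in about 1 in 20 groups. GMNN was 67.5 CPM in the heart of fetus 10, with the next sample at 17.6 CPM. The gonads held 6 of the 10. GMNN was lowest in fetus 1 at 6.38 CPM (next 39.1 CPM), KIF20A highest in fetus 1 at 154 CPM (next 104 CPM) and CCNB2 highest in fetus 4 at 43.8 CPM (next 35.8 CPM). In the gonads of fetus 7, CDT1 was 29.8 CPM (next 19.6 CPM), E2F1 42.7 CPM (next 30.5 CPM, with the library of fetus 6, averaged here with that of fetus 8, at 30.8 CPM) and CDC20 46.2 CPM (next 32.4 CPM, the mean of fetuses 6 and 8). MCM6 was 132 CPM in the liver of fetus 10 (next 87.1 CPM, the mean of fetuses 1 and 2, whose libraries held 91.7 and 82.4 CPM). In maternal blood, PCNA was lowest for fetus 2 at 38.9 CPM (next 61.5 CPM) and AURKA highest for fetus 7 at 15.6 CPM (next 11.2 CPM).

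The slope of NUSAP1 on fetal weight differed between heart and liver by 0.82 on the log2 scale per 0.1 g (adjusted p = 0.0322, edgeR), and its call was lost without fetus 2, 4, 5, 8, 9 or 10.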

How the results depend on the processing

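Over the counts of members called, 254 alternative values stayed within 1.5 times the main count and 45 did not, and for single genes 695 calls kept their side of the threshold, 7 passed it, 55 were lost and 0 turned direction. Requiring a fold change above 2 left 1 member higher in heart than gonads, 11 in gonads than heart, 1 in heart than liver, 11 in liver than heart and 7 in liver than gonads, because fewer genes can pass. The size factors of DESeq2 and DESeq2 itself each left 1 member higher in heart than liver. Without the 7 members that depart between the gonad libraries of fetuses 6 and 8 (chosen after seeing the data), 4 were higher in gonads than liver. Members with a linear slope in the heart numbered 1 with no filter on low counts, 0 with transfer group or mitochondrial share in the fit or without fetuses 9 and 10, and 12 by DESeq2. DESeq2 called 8 members between transfer groups in the heart and 1 with a slope in the liver. With no filter, 0 differed between transfer groups in the liver. At an unadjusted p under 0.05, the spline gave 3 heart, 13 gonad, 4 liver and 1 blood members, and with all gonad libraries as deposited it called 0 there. Where no cause is given, the cause was not tested.

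Leaving out 1 fetus at a time gave 3 to 4 members higher in heart than gonads, 26 to 28 in gonads than heart, 1 to 4 in heart than liver, 24 to 26 in liver than heart, 8 to 11 in gonads than liver and 14 to 18 in liver than gonads. It gave 0 to 9 with a slope in the heart, 0 to 10 between transfer groups in the heart, 0 to 1 between them in the liver and 0 to 2 with a slope difference between heart and liver. With the fetus as a replicate block (paired by animal), the counts were 4 and 28, 3 and 26, and 9 and 17 in the 3 organ pairs, and 0, 1 and 0 for slope differences. Among single genes the block ended the call of KIF20A between heart and gonads. The lowest count of any member in any library was 26, for NUSAP1 in a liver, where its libraries held 26 to 263 counts.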
